A study of Mus musculus with 58 samples.

Results

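The genes described here are 9 genes of the gastric glands and of the mucous cells of the stomach, namely Gkn1, Gkn2, Tff1, Tff2, Muc5ac, Muc6, Atp4a, Atp4b and Pgc, followed mouse by mouse in forestomach RNA and then in lung and liver. They were selected on the same log2(Cy5/Cy3) values, because these had been seen to differ between forestomach samples of the same group, so their levels and their spread are given as a description and without a test. Of the 55681 probes on the array, 10 matched 8 of the 9 genes, with 2 probes each for Tff1 and Pgc and 1 for each of the others. Muc6 matched no probe identifier through the RefSeq gene table and has no value here. Where a gene had 2 probes, the one with the brighter mean Cy5 signal in forestomach stands for the gene.

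The study asked how the transcriptomes of 3 tissues respond to indeno(123-c,d)pyrene (IP), a polycyclic aromatic hydrocarbon. Muta™Mouse males, a transgenic strain carrying a lacZ mutation reporter, were about 13 weeks old and were gavaged daily over 28 days with either the olive oil vehicle alone or oil carrying IP, the doses being 12.5, 25 or 50 mg/kg-bw/day, and tissues were taken 72 h after the last dose. Each of the 58 two-colour Agilent arrays held Cy5-labelled RNA of 1 tissue of 1 mouse and Cy3-labelled universal mouse reference RNA, a pool from cell lines. There were 19 forestomach arrays and 19 liver arrays (4 vehicle mice and 5 mice at each dose) and 20 lung arrays (5 mice per group). The mouse numbers in the sample titles recur across tissues, but the labels do not state that a number marks the same animal. Lung has 5 vehicle mouse numbers, while the paper counts 4 IP control mice at necropsy, so the vehicle numbers are uncertain across tissues. All groups share the strain, the sex, the oil and the gavage. RNA came from a random slice of each tissue.

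The rodent forestomach is lined by a keratinized stratified squamous epithelium without glands and joins the glandular stomach at a sharp border, the limiting ridge. Beyond that border, surface mucous cells secrete gastrokines, trefoil peptides and Muc5ac, neck mucous cells secrete Tff2 and Muc6, parietal cells pump acid with the H+/K+ ATPase built from Atp4a and Atp4b, and chief cells release pepsinogens such as the one encoded by Pgc. None of these cell types belongs to the forestomach lining itself. In bulk tissue RNA, fewer cells of a type and less RNA per cell cannot be told apart.

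All values below are log2(Cy5/Cy3), that is, the level in the mouse relative to the reference pool, unless a brightness is named. No background was subtracted, so a value near 0 of a gene that is dim in both channels is background over background and not an equal level. A spot counted as above background where the scanner software marked its Cy5 signal as well above background. The share of all probes above background was 43.0 to 58.9% on 17 of the 19 forestomach arrays, and 81.2% and 85.9% on those of mouse 8 (12.5 mg/kg-bw/day) and mouse 18 (50 mg/kg-bw/day). No member spot was saturated on any array. The forestomach arrays lay on 5 slides shared with lung, and the array columns followed the dose groups, which makes dose and column inseparable here (they cannot be told apart).

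The promoters of the members that the RefSeq table holds, and that have values, are shown as a description. Their part in the members' values was not tested. Each is the 250 bases before the annotated start site in the GRCm38.p6 assembly, 5′ to 3′ on the strand of the gene, with matches to the 3 motifs searched on both strands in capitals (TATAAA of the TATA box, AGATAA of GATA factors and TGTTTAC of FOXA factors, none of which overlapped).
Gkn1 (chr6:87350916-87351165, minus strand): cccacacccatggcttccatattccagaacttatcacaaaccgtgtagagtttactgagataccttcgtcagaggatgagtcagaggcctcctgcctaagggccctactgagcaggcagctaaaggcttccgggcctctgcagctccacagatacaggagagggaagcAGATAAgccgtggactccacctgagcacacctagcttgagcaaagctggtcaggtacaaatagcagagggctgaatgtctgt
Gkn2 (chr6:87373115-87373364, plus strand): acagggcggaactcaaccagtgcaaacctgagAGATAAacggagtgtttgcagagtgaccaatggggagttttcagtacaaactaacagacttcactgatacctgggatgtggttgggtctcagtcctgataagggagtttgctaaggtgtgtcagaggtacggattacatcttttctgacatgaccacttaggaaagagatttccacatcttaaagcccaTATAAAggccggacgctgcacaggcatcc
Atp4a (chr7:30711959-30712208, plus strand): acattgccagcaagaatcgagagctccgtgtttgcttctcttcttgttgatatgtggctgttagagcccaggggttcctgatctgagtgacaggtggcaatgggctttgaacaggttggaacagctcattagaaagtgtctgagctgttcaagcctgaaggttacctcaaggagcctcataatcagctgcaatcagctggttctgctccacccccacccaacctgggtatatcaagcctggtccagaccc
Pgc (chr17:47726592-47726841, plus strand): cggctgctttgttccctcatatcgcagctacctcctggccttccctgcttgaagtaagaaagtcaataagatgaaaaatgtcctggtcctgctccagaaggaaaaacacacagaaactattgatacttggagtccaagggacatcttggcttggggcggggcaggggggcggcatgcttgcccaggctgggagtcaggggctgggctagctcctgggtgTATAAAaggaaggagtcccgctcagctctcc

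With Muc6 included, 5 members had a promoter in the table. TATAAA occurred in 2 of the 5, at -29 in Gkn2 and at -31 in Pgc (first base of the match, counted from the start site), against 12.4% of all 32851 promoters of this length. AGATAA occurred in 3 of the 5, in Gkn1, Gkn2 and Muc6 at -82, -218 and -194, against 9.99% of all promoters. TGTTTAC occurred in 0 of the 5 and in 3.17% of all. These matches describe the letters of the windows only.

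All 8 measured genes were bright in the forestomach RNA of the same 10 mice and much dimmer in that of the other 9. The 10 mice were vehicle mice 2, 3 and 5, mice 6 and 10 at 12.5 mg/kg-bw/day, mice 13 and 15 at 25 mg/kg-bw/day and mice 18, 19 and 20 at 50 mg/kg-bw/day. Each dose group therefore held both kinds of mice, with 3 of 4, 2 of 5, 2 of 5 and 3 of 5 mice in the bright range from vehicle to the highest dose. For 7 of the 8 genes the widest gap between neighbouring values fell exactly between these 10 mice and the rest. Over all 19980 genes taken by their brightest probe and measured on all 19 arrays, the widest gap fell there for 82 genes, and the 10 highest values belonged to these 10 mice for 400 genes (2%).

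**Figure D1:**
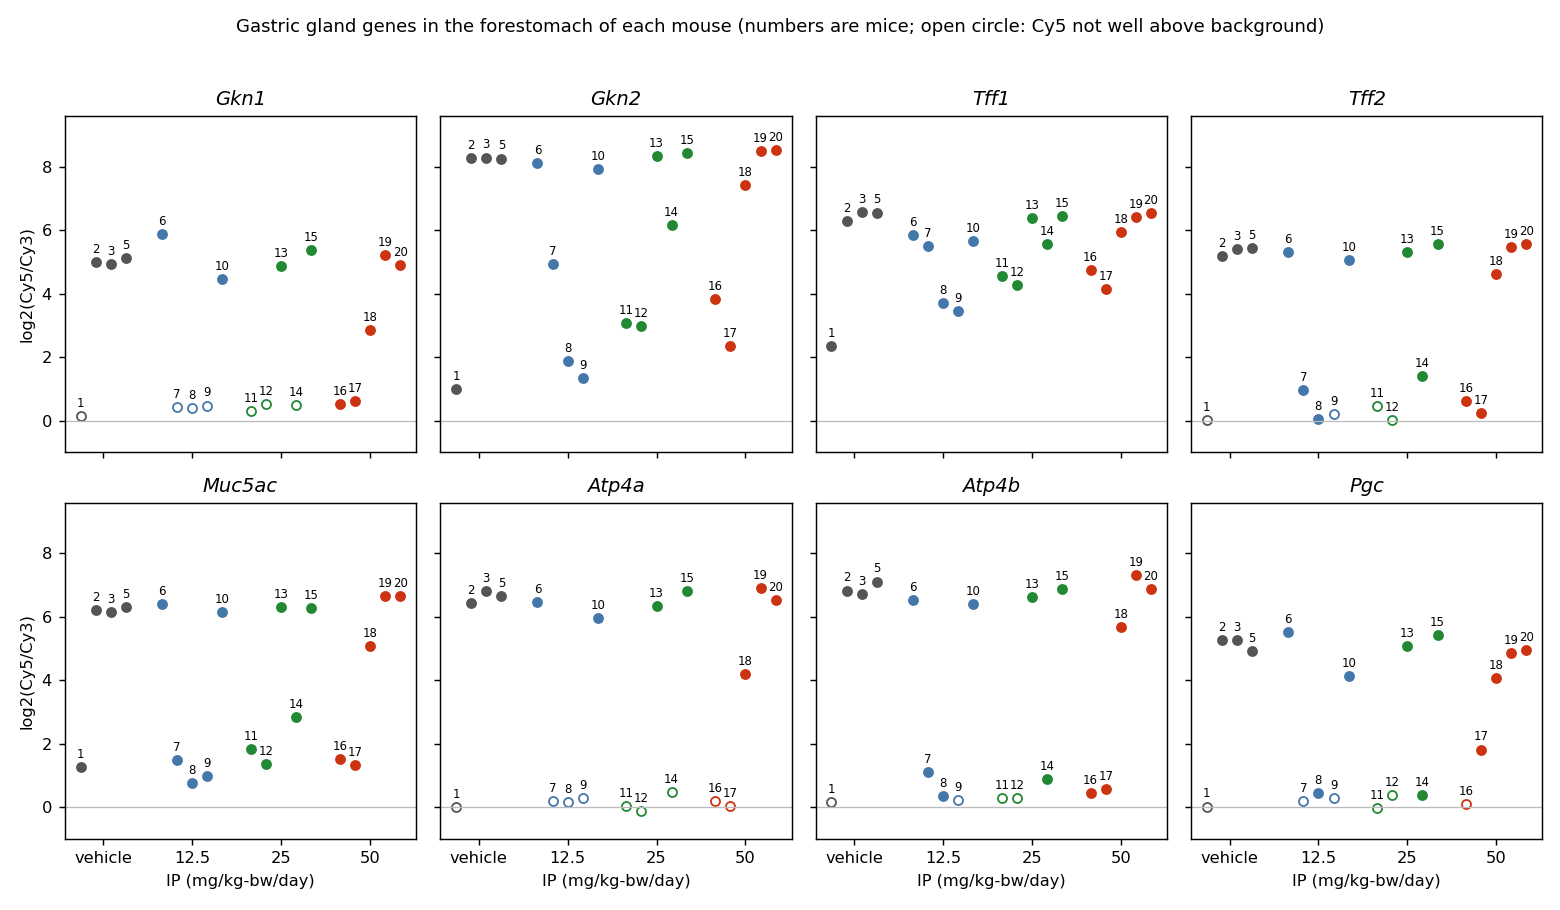
Log2(Cy5/Cy3) of the 8 measured genes (y axis) in the forestomach of each mouse, with dose groups in mg/kg-bw/day on the x axis, mouse numbers beside the points and open circles where Cy5 was not well above background. The same 10 mice lie at the top of every panel, 3 of them vehicle mice, and the other 9 mice lie near 0 for Atp4a but spread from 0.99 to 6.16 for Gkn2.

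Gkn2 encodes a gastrokine secreted by surface mucous cells, and its probe stood on the array in 10 spots. Among vehicle mice, Gkn2 was 0.99 in mouse 1, 8.28 in mouse 2, 8.30 in mouse 3 and 8.26 in mouse 5, and at 12.5 mg/kg-bw/day it was 8.13, 4.94, 1.87, 1.34 and 7.95 in mice 6 to 10. At 25 mg/kg-bw/day Gkn2 was 3.09, 2.97, 8.35, 6.16 and 8.44 in mice 11 to 15, and at 50 mg/kg-bw/day it was 3.84, 2.36, 7.43, 8.51 and 8.54 in mice 16 to 20. The 10 bright mice lay within 7.43 to 8.54, while the other 9 formed a ladder with mouse 14 at its top and vehicle mouse 1 at its foot, and the dose groups overlapped fully. Gkn2 was above background in all 19 mice.

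Tff1 encodes a trefoil peptide secreted with surface mucus. Tff1 was 2.35, 6.31, 6.58 and 6.56 in vehicle mice 1, 2, 3 and 5, and 5.86, 5.51, 3.70, 3.46 and 5.67 in mice 6 to 10 at 12.5 mg/kg-bw/day. It was 4.55, 4.27, 6.39, 5.57 and 6.45 in mice 11 to 15 at 25 mg/kg-bw/day, and 4.74, 4.13, 5.94, 6.41 and 6.54 in mice 16 to 20 at 50 mg/kg-bw/day. The 10 highest values belonged to the same 10 mice, but they ran from 5.67 to 6.58 and mouse 14 lay just below them at 5.57. The widest gap of Tff1 thus lay lower and set apart vehicle mouse 1 alone. This closeness held for the ratio only. In Cy5 brightness (median pixel value, not normalized) Tff1 was 25600 in mouse 14 and 6540 in mouse 7, against 248000 to 416000 in the 10 mice. The second Tff1 probe had the same 10 highest mice, and its values ran from 2.18 to 6.59. Tff1 was above background in all 19 mice.

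Muc5ac, the main gel-forming mucin of the gastric surface, was also above background in every mouse. It was 1.28, 6.21, 6.14 and 6.32 in vehicle mice 1, 2, 3 and 5, and 6.39, 1.49, 0.76, 0.98 and 6.16 in mice 6 to 10. It was 1.82, 1.37, 6.32, 2.85 and 6.28 in mice 11 to 15, and 1.51, 1.32, 5.07, 6.65 and 6.65 in mice 16 to 20. No mouse lay between 2.85 (mouse 14) and 5.07 (mouse 18).

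Gkn1, the other gastrokine, and Tff2, the trefoil peptide of neck mucous cells, were closer to an on or off pattern. Gkn1 ran from 2.86 in mouse 18 to 5.88 in mouse 6 in the 10 bright mice and from 0.16 to 0.63 in the other 9, of which 2 were above background. Tff2 ran from 4.63 to 5.57 in the 10 mice and from 0.01 to 1.41 in the other 9, of which 5 were above background. The empty interval was 2.24 wide for Gkn1 and 3.21 wide for Tff2.

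In the log2 ratio the acid pump genes had the widest empty intervals. In Cy5 brightness the empty interval ran from 124 to 2380 for Atp4a and from 168 to 17900 for Atp4b. For Tff2 it ran from 188 to 28100. Atp4a, the catalytic subunit, was 0.01, 6.45, 6.81 and 6.66 in vehicle mice 1, 2, 3 and 5, and 6.48, 0.18, 0.15, 0.27 and 5.95 in mice 6 to 10. It was 0.04, -0.13, 6.35, 0.48 and 6.80 in mice 11 to 15, and 0.18, 0.02, 4.19, 6.91 and 6.54 in mice 16 to 20. Atp4a was above background in the 10 mice and in none of the other 9. Atp4b, the other subunit, ran from 5.67 to 7.32 in the 10 mice and from 0.17 to 1.10 in the other 9, of which 5 were above background, and its empty interval of 4.56 was the widest among the members.

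Pgc, the pepsinogen C precursor made by chief cells, was 0.02, 5.27, 5.28 and 4.93 in vehicle mice 1, 2, 3 and 5, and 5.51, 0.20, 0.44, 0.29 and 4.13 in mice 6 to 10. It was -0.02, 0.38, 5.09, 0.39 and 5.42 in mice 11 to 15, and 0.10, 1.82, 4.06, 4.87 and 4.94 in mice 16 to 20. Mouse 17, with Pgc at 1.82, was the highest of the 9 dimmer mice for this gene, but its Atp4a was 0.02. The second Pgc probe split the mice at the same place, between 0.54 and 4.05.

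The 9 dimmer mice were thus not alike, and the order among them depended on the gene. Mouse 14 was the highest of the 9 for Gkn2, Tff1, Tff2 and Muc5ac, mouse 7 for Atp4b and mouse 17 for Gkn1 and Pgc. Vehicle mouse 1 was the lowest of all 19 mice for Gkn2 and Tff1, both above background there. In these 9 mice, Gkn2, Tff1 and Muc5ac were above background in 9 of 9 while Atp4a was in 0 of 9 and Pgc in 3 of 9.

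The 10 bright mice also differed among themselves, mainly through mice 10 and 18. In Cy5 brightness (median pixel value, not normalized), Tff1 was 361000 in mouse 10 and 365000 in mouse 18, inside the 248000 to 416000 of the 10 mice, and Gkn2 was 275000 and 176000. Pgc was 4970 in mouse 10 and 12400 in mouse 18, against 104000 to 266000 in the other 8. Atp4a was 2380 and 2640 in these mice, against 13200 to 33700 in the other 8. Muc5ac was 6290 and 11500, against 28200 to 78200, and Atp4b was 31400 and 17900, against 73000 to 146000. Gkn1 was 1340 and 679, against 1360 to 2840. In Cy5 brightness both mice thus lay below all of the other 8 for Pgc, Atp4a, Atp4b, Muc5ac and Gkn1. In the log2 ratio both lay below the other 8 for Pgc, Atp4a, Atp4b, Gkn1, Gkn2 and Tff2, but not for Muc5ac, where mouse 10 (6.16) lay above mouse 3 (6.14), nor for Tff1, where mouse 10 (5.67) lay below them and mouse 18 (5.94) did not. The array of mouse 18 was 1 of the 2 with an unusually large share of probes above background, that of mouse 10 was not (46.3%).

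The Cy3 channel, which held the same reference RNA on every array, was brighter in all of the 10 mice than in any of the other 9 for Gkn2, Tff1, Tff2, Atp4b and Pgc. For Pgc, Cy3 brightness was 34.5 to 131 in the 9 dimmer mice and 489 to 14500 in the 10 bright mice. For Tff1 it was 42.0 to 975 and 6940 to 11300, and for Gkn2 30.4 to 158 and 1220 to 1880. The Cy3 ranges of the 9 and of the 10 mice overlapped for Gkn1 (32.0 to 93.0 and 57.5 to 127), Muc5ac (42.0 to 260.0 and 153 to 2060) and Atp4a (29.0 to 141 and 61.0 to 429). The source of this Cy3 signal was not tested. A ratio with a rising denominator is smaller than the rise of Cy5, and from Cy5 alone, after quantile normalization, the range over the 19 arrays was 11.47 for Pgc and 10.01 for Tff1 on the log2 scale, against 5.53 and 4.23 from the ratio.

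**Figure D2:**
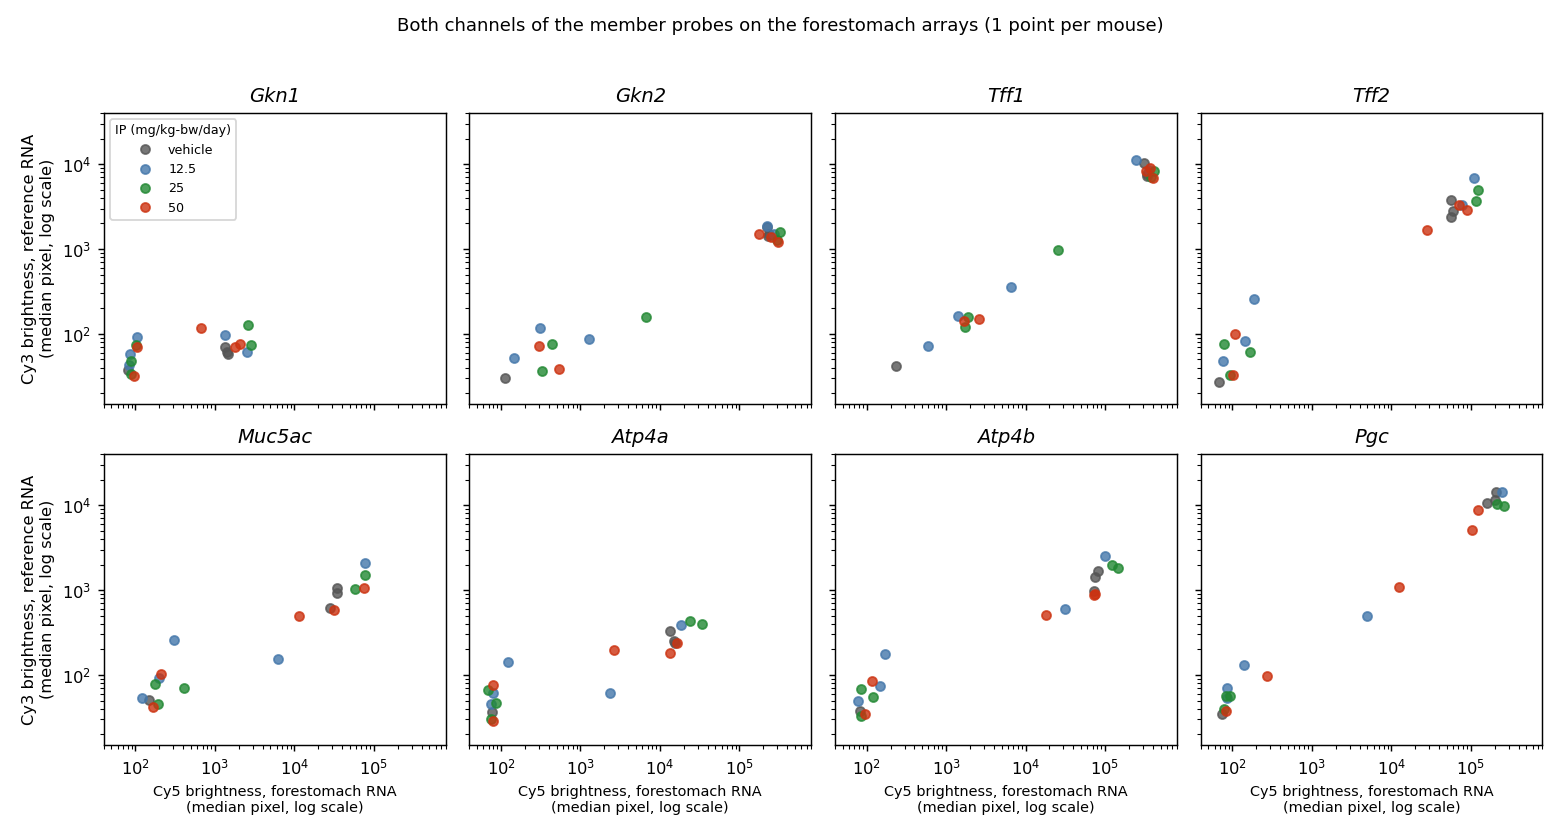
Cy3 brightness of the reference RNA (y axis, log scale) against Cy5 brightness of the forestomach RNA (x axis, log scale) for each member probe, 1 point per mouse, coloured by dose. Cy3 of the 10 bright mice lies above that of the other 9 for 5 of the genes, reaching 14500 for Pgc, and the Cy3 ranges overlap for Gkn1, Muc5ac and Atp4a.

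The range over the 19 forestomach arrays was 7.55 for Gkn2, 7.15 for Atp4b, 7.05 for Atp4a, 5.89 for Muc5ac, 5.72 for Gkn1, 5.56 for Tff2, 5.53 for Pgc and 4.23 for Tff1, against a median of 0.80 over the 19980 genes. The standard deviation within dose groups was 3.38 for Atp4a and 3.37 for Atp4b, which put them 13th and 14th among 55681 probes, and 1.34 for Tff1, which ranked 288th. The median over all probes was 0.17. Since the genes were picked for this spread, the ranks only say how far it went.

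Slides held the bright mice unevenly. Slide 4 carried 4 of them among 4 forestomach arrays, slide 5 carried 1 of 4 (mouse 6), slide 1 carried 1 of 4 (mouse 2), slide 2 carried 2 of 3 and slide 3 carried 2 of 4. No lung array of these slides exceeded 3.63 for any member, and every slide but slide 4 held both kinds of forestomach. The part of the slide in the pattern was not tested.

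Other genes were ranked by how closely they followed the members. The likeness was Pearson's r, over 19 arrays and after removing dose group means, with the mean of the 8 members, among 13740 genes above background in at least 50% of the forestomach arrays. Since the arrays fell into 2 ranges, r mainly records that split and no p is given. The highest values were 0.997 for Psca, a surface protein of gastric epithelium, 0.994 for Sult1c2, a sulfotransferase, 0.994 for Bpifb1, a secreted mucosal protein, 0.993 for Pla2g10, a secreted phospholipase, and 0.993 for Gsdma3, a gasdermin. Next were Tspan1, Cxcl17, Cblif (gastric intrinsic factor, the carrier of cobalamin), 2210407C18Rik and Ctse (cathepsin E), from 0.992 to 0.991. For all 10 genes the widest gap lay between the same 10 mice and the rest. Cblif ran from 0.06 to 1.45 below the gap and from 6.13 to 8.83 above it.

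In the opposite direction the lowest r were -0.942 for Pmm1, -0.935 for Osmr, -0.926 for Dusp7, -0.919 for Psat1 and -0.917 for B4galt4. Their ranges were small, 0.70 for Pmm1 and at most 1.43 (Psat1), and none had its widest gap at the 10 mice.

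Most listed markers of mucous, chief and parietal cells had their 10 highest values in the same 10 mice, and most squamous and smooth muscle markers were above background in every mouse. Of 14 other surface and neck mucous genes, 12 had their 10 highest values in the same 10 mice, and the 4 brightest were Anxa10, a gastric annexin (0.02 to 9.95), Mucl3 (-0.14 to 7.14), Psca and Agr2, a folding enzyme of mucous cells (0.06 to 7.46). Of 7 chief cell and digestive enzyme genes, 5 did so, among them Chia1, acidic chitinase (0.46 to 8.87), and Pga5, a pepsinogen (-0.26 to 4.99). Of 11 parietal genes 7 did so, with Clic6 from -0.02 to 4.70, while Car2 (4.97 to 6.18) and Ckb (3.69 to 4.79), enzymes that other tissues share, were bright in all mice. Of 8 gastric endocrine genes 3 did so, with Sst, somatostatin, at -0.12 to 4.41 and Ghrl, ghrelin, at -0.07 to 3.20. Chga and Chgb, granins shared by many endocrine cells, did not. They were above background in all 19 mice, at 3.04 to 5.44 and 1.31 to 4.65. Yet the widest gap of Chga set 9 mice above the rest, and that of Chgb 8 mice, all of them from the bright range.

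The squamous genes that define the forestomach lining were above background in all 19 mice for 17 of 18 genes, Krt6a being above it in 16 (0.01 to 3.67). Of 8 smooth muscle genes 7 were above background in all 19 mice, with Cnn1 at 6.34 to 7.15, and Lmod1 was in 11 (-0.10 to 2.26). Lor, a protein of the cornified envelope, ran from 6.31 to 7.62, and Krt10, a keratin of the upper layers, from 6.17 to 7.48. None of the 18 squamous genes and none of 8 smooth muscle genes had its 10 highest values in the 10 mice. That count does not see genes that are lower in these mice, which held the 10 lowest values for 60 of the 19980 genes. The widest gap of Krt6a set mice 1, 2, 3, 5, 6, 13, 15, 19 and 20 above the rest, all but mouse 1 from the bright range. That of Ivl set mice 1, 5, 9, 11, 12, 14, 16 and 17 above the rest, all but mouse 5 from the dimmer range. The median range was 1.32 for the squamous list and 1.69 for the smooth muscle list, against 6.01 for the mucous, 5.25 for the chief cell and 4.27 for the parietal list. The gastric endocrine list had a median range of 2.58. Squamous and smooth muscle markers thus varied far less than mucous, chief cell and parietal markers in the same RNA.

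Markers of other tissues were read in the same arrays. In the exocrine pancreas list, 1 of 8 genes had its 10 highest values in the 10 mice (Amy2a5, -0.11 to 2.53), and the defining Cpa1 and Pnlip were above background in 3 and 4 of 19 mice. Other genes of that list were above background more often, with Cel in 19 mice (0.65 to 1.69), Ctrb1 in 18 (0.02 to 0.50), and Cpb1 and Prss2 in 10 each, Prss2 at -0.34 to 3.59. In the intestine list it was 2 of 8 (Vil1 and Lgals4, which epithelia of the stomach also express), and Cdx2, Muc2 and Sis were above background in 2, 1 and 5 mice, while the fatty acid binding proteins Fabp2 (0.05 to 2.47) and Fabp1 (0.21 to 3.89) were in 16 and 15. In the airway, alveolar and hepatocyte lists it was 3 of 7, 1 of 8 and 2 of 8, with Spdef (-0.46 to 5.89), Cldn18 (-0.19 to 2.91) and Apoa1 (0.06 to 5.47) among them. Scgb1a1, the main secretory protein of club cells, was at 4.30 to 5.51 in all 19 mice, and among surfactant proteins Sftpa1 was above background in 3 mice, Sftpc in 17 (0.05 to 4.12) and Sftpd in 13 (-0.25 to 6.00, the highest in mouse 6). The median range was 4.68 for the airway list and 3.62 for the hepatocyte list. For the alveolar, intestine and exocrine pancreas lists it was 1.55, 1.51 and 0.91. A wide range was thus not particular to the gastric lists. The part of other cell types in the members' values was not tested.

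**Figure D3:**
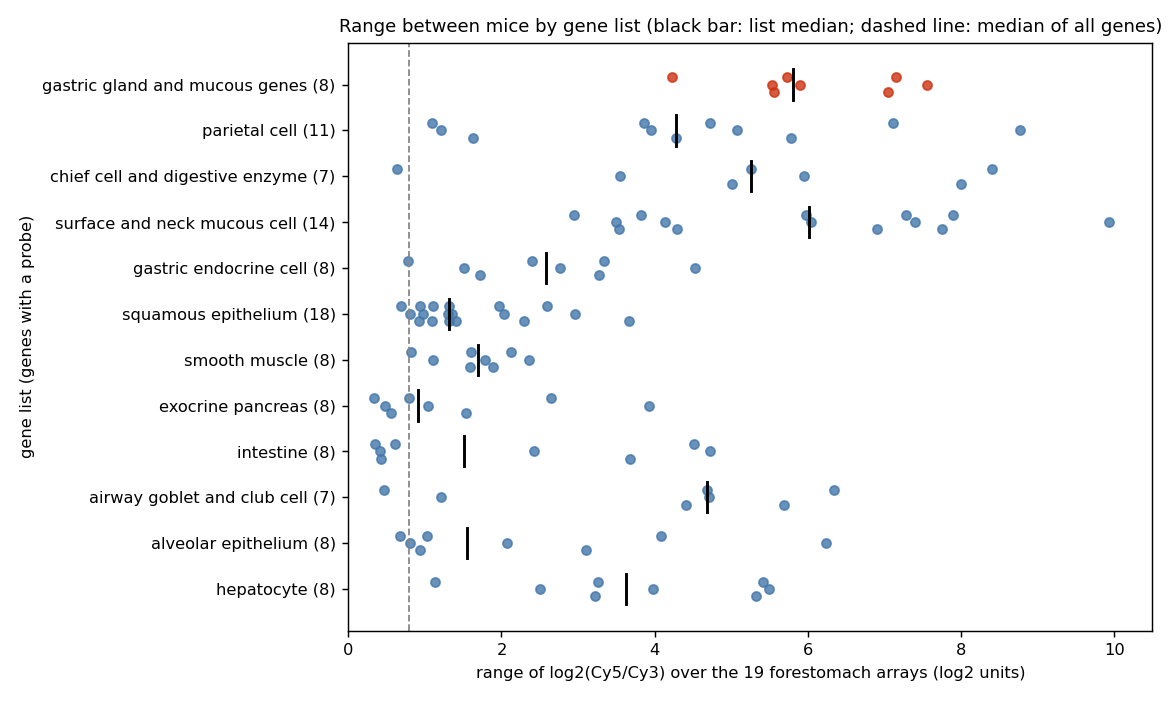
Range of log2(Cy5/Cy3) over the 19 forestomach arrays (x axis, log2 units) for each gene of the members and of 11 marker lists (y axis, number of genes with a probe in brackets), with the list median as a black bar and the median of all genes (0.80) as a dashed line. The mucous, chief cell and parietal lists reach far to the right, while most squamous and smooth muscle genes stay under 2. Single genes of the airway, alveolar and hepatocyte lists reach 6.35, 6.24 and 5.49.

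Other splits ran through the gastric lists. Among 1445 genes with a range over 2, the widest gap most often set apart mouse 6 alone (246 genes, no member, 3 of the parietal and 1 of the mucous list). It set apart the 10 mice for 79 genes, 7 of them members, and the same mice without mice 10 and 18 for 136 genes, none a member. The latter 136 included 3 of the chief cell list, namely Chia1, Bhlha15 (a transcription factor of chief cells) and Gper1, and 2 of the mucous list, Muc1 and Galnt6. Chia1 was at most 5.59 below that gap and at least 7.99 above it. A further 98 genes set apart the 10 mice without mouse 18, among them Pga5, Cym and Kcne2, a potassium channel subunit of parietal cells. These genes were named after their values were seen.

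Gkn1 and Gkn2 are chromosomal neighbours of each other, as are Tff1 and Tff2, and these members had their 10 highest values in the 10 mice. The other neighbours of the members mostly did not. Gkn3, which follows Gkn2, split at the same 10 mice (0.03 to 6.02), and Antxr1 on the other side of Gkn1 did not (-0.37 to 0.83). Tff3, next to Tff2, ran from -0.01 to 3.48 with a different order of mice, and Tmprss3, next to Tff1, varied by 0.75. Muc2 and Muc5b flank Muc5ac, and Muc2 was above background in 1 mouse. Muc5b ran from -0.10 to 4.60 and did not have its 10 highest values in the 10 mice. Its widest gap set apart mice 2, 3, 6 and 20, all of the bright range. The measured neighbours of Atp4a, Atp4b and Pgc did not have their 10 highest values in the 10 mice either.

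The lung and liver arrays carried the markers of their tissues, with Sftpa1 at 5.85 to 7.30 in lung and Alb, albumin, at 6.27 to 8.29 in liver. In lung most member values lay near 0, although Muc5ac was above background in 19 of 20 arrays, Tff2 in 17, Gkn1 and Pgc in 14 each, Atp4b in 6, Tff1 and Atp4a in 4 each and Gkn2 in 1. Atp4a ran from -0.29 to 0.26, Atp4b from -0.67 to -0.00, Pgc from -0.28 to 0.52, Muc5ac from -0.11 to 0.54 and Gkn1 from 0.09 to 0.90 over the 20 lung arrays. Tff2 was the member with a wider spread in lung, with a median of 0.81 and a highest value of 3.63 in vehicle mouse 5, above the next mouse at 1.92 (mouse 8). Tff1 was above background in 4 lung arrays, with 0.93 in vehicle mouse 1 and 1.06 in vehicle mouse 2. The same 2 arrays had the highest lung values of Gkn2, at 0.39 in mouse 1, not above background, and 0.28 in mouse 2, above background. By these numbers, vehicle mouse 1 was in the dim range in forestomach and vehicle mouse 2 in the bright range, if they mark the same animals.

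In liver no member exceeded 0.81, the highest value of Tff2. Gkn1, Gkn2 and Tff1 were above background in 0 of 19 liver arrays, and Tff2, Muc5ac, Atp4a, Atp4b and Pgc in 5, 7, 5, 4 and 2. Liver arrays lay on slides of their own, so that tissue and slide cannot be told apart.

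The forestomach was highest for every member by its median, and the full order held mouse by mouse for some genes only. All 19 forestomach values lay above all 20 lung values and all 19 liver values for Gkn2, Tff1 and Muc5ac. For Atp4b all 19 lay above all lung values too, but the nearest pair, 0.17 in forestomach and -0.00 in lung, was not above background in either tissue. For Gkn1 and Tff2, 10 of 19 forestomach values lay above every lung value and for Pgc 11, and for Atp4a it was 12, of which 10 were above background. Lung and liver values overlapped for all 8 genes.

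**Figure D4:**
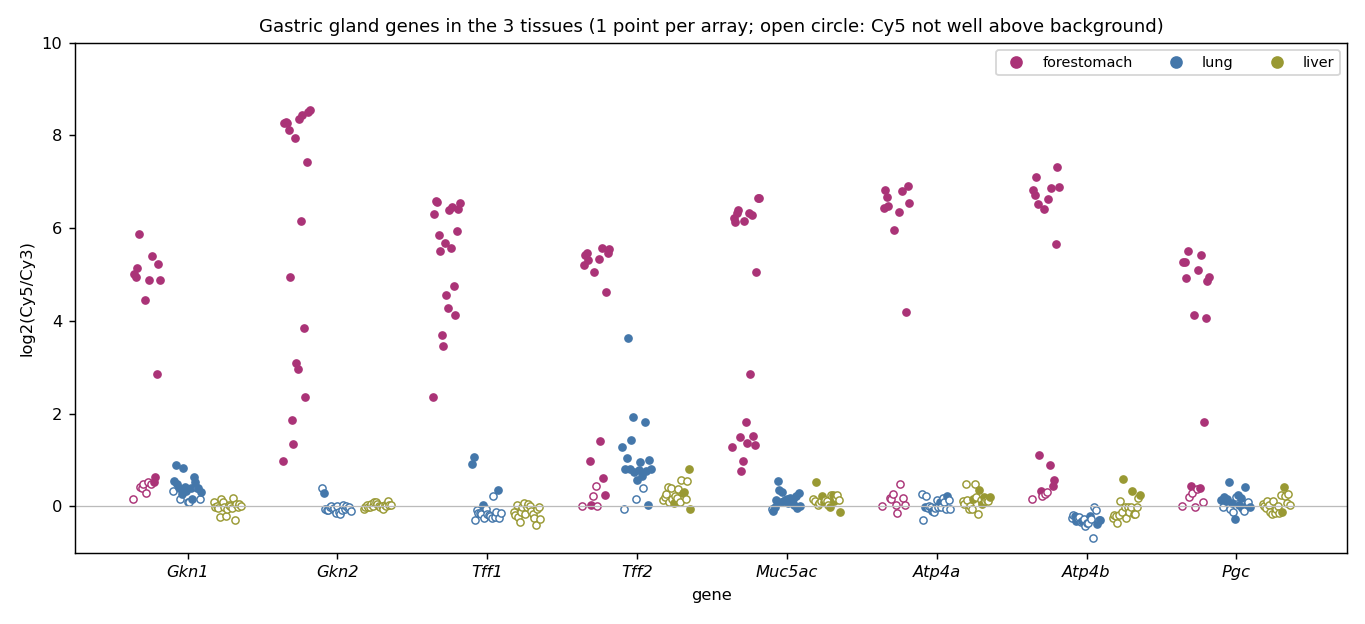
Log2(Cy5/Cy3) of the 8 genes (y axis) in forestomach, lung and liver, 1 point per array, open where Cy5 was not well above background. Forestomach values reach from near 0 to 8.54, most lung and liver values stay under 1, and the lung value of Tff2 in vehicle mouse 5 stands out at 3.63.

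Against vehicle, limma called 0 of the 8 members DEGs (FDR adjusted p at most 0.05 and fold change of at least 1.5) at any dose in forestomach, where 0% of the 55681 probes were called at each dose. At an unadjusted p under 0.05 it was also 0 of 8 at each dose, against 4.12, 3.6 and 3.89% of all probes from the lowest to the highest dose. Because the members were picked for their spread within these groups, the errors of these tests were large from the start. The absence of calls among the members therefore does not show that they were unchanged. The fold changes on the log2 scale were large, and so were their errors. At 12.5 mg/kg-bw/day they were below 0 for 8 of 8 members, with a median of -1.73, from -2.38 for Atp4a (SE 2.06, 95% interval -6.70 to 1.94) to -0.61 for Tff1 (SE 0.82), and 50.7% of all probes lay below 0 with a median of -0.00.

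At 25 mg/kg-bw/day 8 of 8 members were below 0 with a median of -1.48, and at 50 mg/kg-bw/day 7 of 8 with a median of -0.73, against 46.9 and 48.8% of all probes. The adjusted p from limma was 0.977 or more for every member and dose. The vehicle group held 3 of 4 mice of the bright range and the dose groups 2 or 3 of 5. Since all 8 members were highest in the same mice, the counts below 0 at each dose are 1 observation seen through 8 genes. Without vehicle mouse 1, the lowest control, the change of Atp4a became -4.03, -3.94 and -3.07 at the 3 doses with an adjusted p of 0.688, 0.998 and 0.975, and 0 members were called.

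With slide as a block, the change of Atp4a was -2.53, -2.43 and -1.57, and 0 members were called. Within the 4 slides that held a vehicle array, the difference of Atp4a between the 50 mg/kg-bw/day mouse and the vehicle mouse ran from -6.42 to 0.25, with 2 slides below 0 and 2 above. At 12.5 mg/kg-bw/day it ran from -6.39 to 6.46. The intervals of the fold changes held large changes in either direction.

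**Figure D5:**
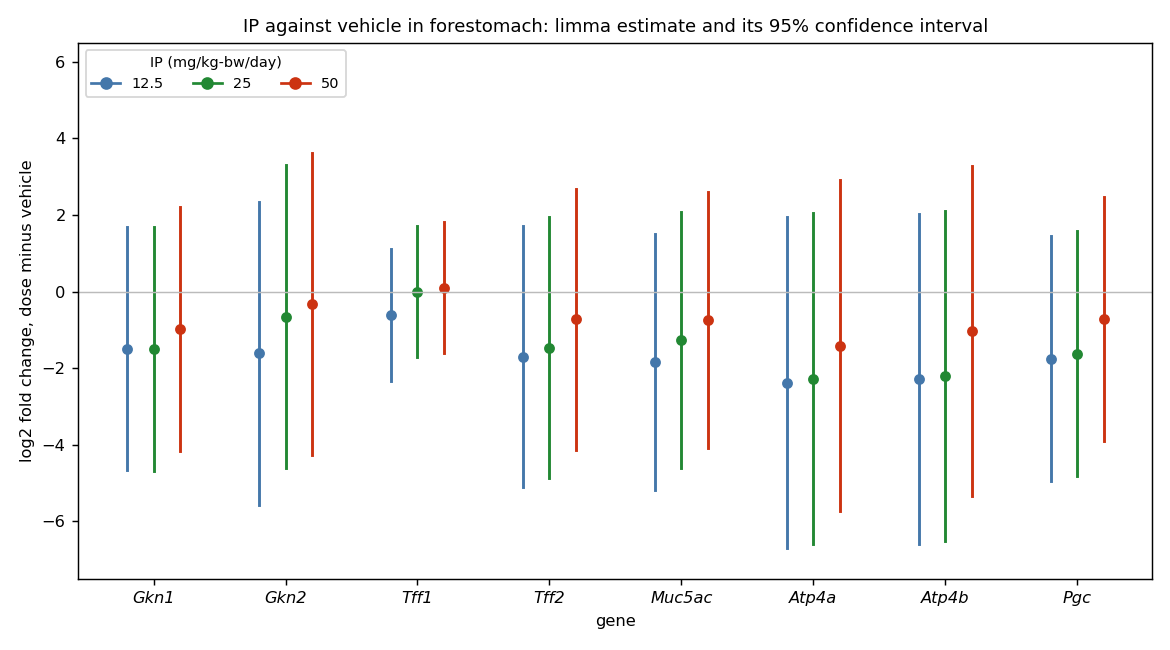
Log2 fold change of each member in forestomach (y axis, dose minus vehicle) at the 3 IP doses, with the limma estimate as a point and its 95% confidence interval as a line. Every interval crosses 0, and that of Atp4a at 12.5 mg/kg-bw/day reaches from -6.70 to 1.94.

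In lung limma called 0 of 8 members at each dose, where 0, 0.0126 and 0.079% of all probes were called from the lowest to the highest dose, and 0 of 8 had an unadjusted p under 0.05, against 3.92, 6.53 and 8.8% of all probes. The second Tff1 probe had unadjusted p of 0.0438, 0.00746 and 0.0223 from limma (log2 changes of -0.37, -0.52 and -0.43, adjusted p of 1, 0.462 and 0.444), and it was above background in 4 of the 20 lung arrays, vehicle mice 1 and 2 among them. By the probes that stand for the genes, the changes ran from -0.67 (Tff2 at 25 mg/kg-bw/day, SE 0.47) to 0.10 (Muc5ac at 12.5 mg/kg-bw/day, SE 0.10), and 7, 5 and 6 of the 8 lay below 0, against 49.2, 49.3 and 49.8% of all probes. In liver limma called 0 of 8 at each dose and 0% of all probes, and at an unadjusted p under 0.05 it was 1, 0 and 0 members against 2.6, 4.44 and 6.87% of all probes. Below 0 lay 5, 3 and 4 of the 8, against 51.4, 51.7 and 52.1% of all probes. The 1 member was Atp4b at 12.5 mg/kg-bw/day (0.33, SE 0.14, adjusted p = 1), which was above background in 1 of those 9 arrays.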

How the data were processed

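RNA of 58 tissue samples was measured on two-colour arrays. The intensity values (median pixel brightness of Cy5 and Cy3) were made by the authors with Agilent Feature Extraction, version 10.7.3.1 for lung and forestomach and 11.0.1.1 for liver per the file headers. The log10 ratio in the same deposited files was background-subtracted and dye-normalized by that software, per the file headers. The authors also deposited LOWESS-normalized log2 ratios, which had a Pearson r of 0.996 to 0.999 with the scanner ratios in lung and 0.997 to 0.999 in forestomach, but -0.01 to 0.01 in liver under their probe names, so the liver columns were not used.

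Log2(Cy5/Cy3) was computed from median signals without background subtraction, with loess within each array, and spots of a probe were averaged without those marked as outliers. The software was limma 3.58.1 in R 4.3.3, with statmod 1.5.0 and version 1.17.8 of data.table. Through RefSeq gene names, 26413 of 55681 probes were named (20018 gene names). Each tissue was fitted with limma as 1 model of 4 groups, two-sided, and p values were adjusted over all probes within each contrast. The fit was tested on simulated data with 200 changed probes and independent normal noise for each probe. Those data held no split of the mice shared between genes, so the test does not cover genes that behave like the members.

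The members and lists were chosen with earlier results of these data known. Named genes are all members, the 10 most like and 5 least like genes, and the 4 brightest of each marker list, with further list genes named after their values were seen. Mice are separate animals. Arrays give no read depth, and the number of arrays limits the precision. The alternatives were normexp with an offset of 50, median-centring, Aquantile, Cy5 alone, the scanner log ratio, the authors' values, keeping outlier spots, leaving out dim probes (Cy5 above background in under 50% of arrays), slide as a block, 2 groups fitted alone, limma with trend and robust, an unadjusted p of 0.05 with a fold change of 1.2, means over probes, and each mouse left out.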

Additional observations from a re-analysis of the deposited data

Results flagged for a closer look

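Among 75 gene and group combinations examined for 1 sample far from the rest, 9 stood out. Chance alone marks about 1 in 20, but these genes were picked for their spread within forestomach groups, so the count is a description and is not evidence against chance. In 8 of them vehicle mouse 1 was far below the other 3 vehicle mice in forestomach. Its log2(Cy5/Cy3) was 0.16 for Gkn1 (next lowest vehicle mouse 4.95), 0.99 for Gkn2 (8.26), 2.35 for Tff1 (6.31), 0.0148 for Tff2 (5.20), 1.28 for Muc5ac (6.14), 0.0148 for Atp4a (6.45), 0.17 for Atp4b (6.72) and 0.0174 for Pgc (4.93). These 8 are 1 observation seen through 8 genes of the same RNA. The array of mouse 1 had the smallest share of probes above background in forestomach, 43.0%, and its part in these values was not tested.

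In lung, Tff1 of mouse 18 at 50 mg/kg-bw/day was 0.35, above the other 4 mice of its group, the nearest at -0.12. The lung array of mouse 18 had 85.1% of all probes above background, and the part of this in the value was not tested.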

How the results depend on the processing

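No paired analysis was possible because dose groups compared within a tissue share no mouse number, and slide was used as a block instead. No alternative called a member at the thresholds of the report in any tissue. With calls at a fold change of 1.2 and an unadjusted p under 0.05, the probes called in forestomach rose from 0 to 1192, 900 and 1018 from the lowest to the highest dose with 0 members among them, and liver had 1 member at 12.5 mg/kg-bw/day. The signs of the fold changes near 0 turned under some settings. In forestomach, Tff1 at 25 mg/kg-bw/day became 0.0453 with normexp, 0.29 with median-centring and 0.0228 as a mean over probes, and at 50 mg/kg-bw/day it became -0.44 from Cy5 alone and -0.14 with the scanner log ratio, which also turned Gkn2 to 0.0595. In lung at 50 mg/kg-bw/day, Muc5ac became 0.0198 with normexp, 0.0049 with median-centring, 0.19 from Cy5 alone and 0.13 with the scanner log ratio. The scanner log ratio gave 0.55, 0.36 and 0.16 for lung Tff2 from the lowest to the highest dose and 0.0737 for liver Tff2 at 12.5 mg/kg-bw/day. Lung Pgc at 25 mg/kg-bw/day became -0.0586 as a mean over probes, and liver Tff2 became -0.11 and -0.16 at 25 and 50 mg/kg-bw/day with median-centring.

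Leaving out each mouse in turn gave forestomach changes from -2.48 to 0.0522 (Gkn2) and -1.04 to 0.37 (Tff1) at 25 mg/kg-bw/day, and from -2.14 to 0.62 (Gkn2), -0.93 to 0.48 (Tff1), -2.06 to 0.0422 (Tff2) and -2.00 to 0.047 (Pgc) at 50 mg/kg-bw/day. In lung it gave -0.68 to 0.24 (Tff2) at 12.5, -0.0163 to 0.15 (Muc5ac) and -0.0301 to 0.0447 (Pgc) at 25, and -0.81 to 0.11 (Tff2), -0.0561 to 0.11 (Muc5ac) and -0.12 to 0.0111 (Pgc) at 50 mg/kg-bw/day. In liver it gave -0.017 to 0.10 and -0.0205 to 0.20 for Tff2 at 25 and 50 mg/kg-bw/day. The cause of these turns was not tested. The range over the forestomach arrays rose to 10.01 for Tff1, 10.97 for Tff2, 9.48 for Muc5ac, 10.56 for Atp4b and 11.47 for Pgc from Cy5 alone, and the range of Tff1 fell to 2.00 with the scanner log ratio. The number of members with all forestomach values above all lung values stayed between 3 and 4 over the settings other than those leaving out a mouse. The authors' values were not run for liver. Cy5 alone and Aquantile were not run across tissues, because they normalize each tissue by itself. Members dim in both channels, such as Atp4a in the 9 mice, have no measured order there.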
